A study of Nematostella vectensis with 47 samples.

Results

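A set of 202 genes was examined, of 19231 genes in the count table of the sea anemone Nematostella vectensis. In RNA-seq these genes were lower in gastrulae treated with GSK-3484862 (GSK), an inhibitor of the maintenance DNA methyltransferase DNMT1, than in gastrulae kept in DMSO, and were near the DMSO level again in untreated gastrulae of the next generation from GSK-treated parents. The members were chosen on CPM (counts scaled to the same total in every library) in these same libraries. A gene had to average at least 2 CPM in DMSO, to be lower in every F0 GSK library than in every DMSO library, to have an L of F0 GSK at or below -0.8 and to have an L of F1 GSK above -0.3. L is the log2 ratio of a group's mean CPM to the DMSO mean CPM, with 0.5 CPM added to both, so that an L of -1 is close to 2-fold lower. Of the 14008 genes with at least 2 CPM in DMSO, called expressed genes here, 481 met the criteria for F0 GSK. Of these, 202 are the set, 94 had an L of F1 GSK at or below -0.8 and 185 lay between.

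The study asked what the loss of DNA methylation does to chromatin and transcription, and whether its effects pass to the offspring. All groups carried the genotype labelled Massachussets. F0 GSK embryos were zygotes from pooled gametes of several animals, held in 5 µM GSK, and were sampled as whole gastrulae at 25 h post-fertilization (hpf). F1 GSK embryos came from 2 lines, each founded by 1 pair of GSK-treated F0 adults chosen for low methylation, and were themselves untreated when sampled at 25 hpf. F1 MO embryos came from 2 lines founded by F0 animals that had been injected as eggs with translation-blocking morpholinos against DNMT1 and its cofactor UHRF1, and were also untreated at 25 hpf. DMSO embryos shared the gamete pools of F0 GSK, were held in 0.1% DMSO and were sampled at the same stage. RNA-seq covered 3 F0 GSK, 2 F1 GSK, 2 F1 MO and 3 DMSO libraries. ATAC-seq, which measures open chromatin, covered 3 F0 GSK, 2 F1 GSK, 2 F1 MO and 2 DMSO libraries. CAGE-seq, which maps the capped ends of transcripts, covered 2 GSK and 2 untreated control libraries, the GSK ones from RNA of the RNA-seq replicates. Nanopore sequencing gave 1 methylome each of sperm of a GSK-treated male, F1 gastrulae and an F1 juvenile of a GSK-treated by untreated cross, and gastrulae of an untreated cross. The 2 lines of each F1 group differ in parents as well as in history, F1 and DMSO embryos are of different generations, and the effects of line, generation and parental treatment cannot be told apart. The F1 embryos of the Nanopore libraries had 1 untreated parent and are not from these lines.

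In cnidarians, as in many invertebrates, 5-methylcytosine is found mainly inside the bodies of transcribed genes, while promoters stay free of it. DNMT1, brought to newly replicated DNA by UHRF1, copies the mark to the new strand, so that blocking either dilutes methylation as cells divide. Methylated gene bodies usually belong to steadily transcribed genes, and the mark has been linked to the silencing of promoters that lie inside genes, many of them in transposable elements. All 202 members carry only LOC symbols in RefSeq (assembly jaNemVect1.1), with no product name in the tables used here. Each is therefore given by symbol and position, and the roles of the proteins were not used here.

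The RNA-seq libraries held 20823699 to 29358798 counts and the ATAC-seq libraries 11366484 to 33980509 counts in peaks. DMSO replicate 3 stood apart: its log2 CPM profile had a Pearson r of 0.957 and 0.967 across genes with the other DMSO libraries, which had an r of 0.988 with each other. It was the highest DMSO library in 87 members and the lowest in 88, and DMSO replicate 1 was the highest in 44 and also the lowest in 88. The 2 ATAC-seq libraries had an r of 0.709 in F1 GSK and 0.595 in F1 MO, against 0.949 to 0.969 between libraries of 1 group in F0. In whole embryos, fewer cells of a type and less RNA per cell cannot be told apart, and the share of cell types was not analysed here. Without DMSO replicate 3 the same rule picked 264 genes, 144 of them among the 202. All the comparisons with DMSO below share the same DMSO libraries, and these were high in the set by the choice of its members.

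The median member had 8.66 CPM in F0 GSK, 19.7 CPM in F1 GSK, 14.2 CPM in F1 MO and 19.5 CPM in DMSO. Over all expressed genes the medians were 28.1 CPM in F0 GSK, 30.1 CPM in F1 GSK, 28.6 CPM in F1 MO and 28.4 CPM in DMSO, so the set lay on the lower side of the expressed genes. Mean levels in DMSO ranged from 2.04 to 268 CPM, with 29 members under 5 CPM and 32 at 50 CPM or more. Per library, the median L of the set was -0.97, -1.12 and -0.998 in F0 GSK replicates 1 to 3, and -0.003 and -0.04 in the F1 GSK libraries. It was -0.37 and -0.50 in the F1 MO libraries, and -0.06, 0.02 and -0.006 in the DMSO libraries. The F0 GSK and F1 GSK values follow from the choice of the members. The F1 MO libraries were not used to choose them, and the set lay between its F0 GSK and DMSO levels there. The rule chose low F0 GSK and high DMSO values, which favours such a place between them for any other group.

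**Figure D1:**
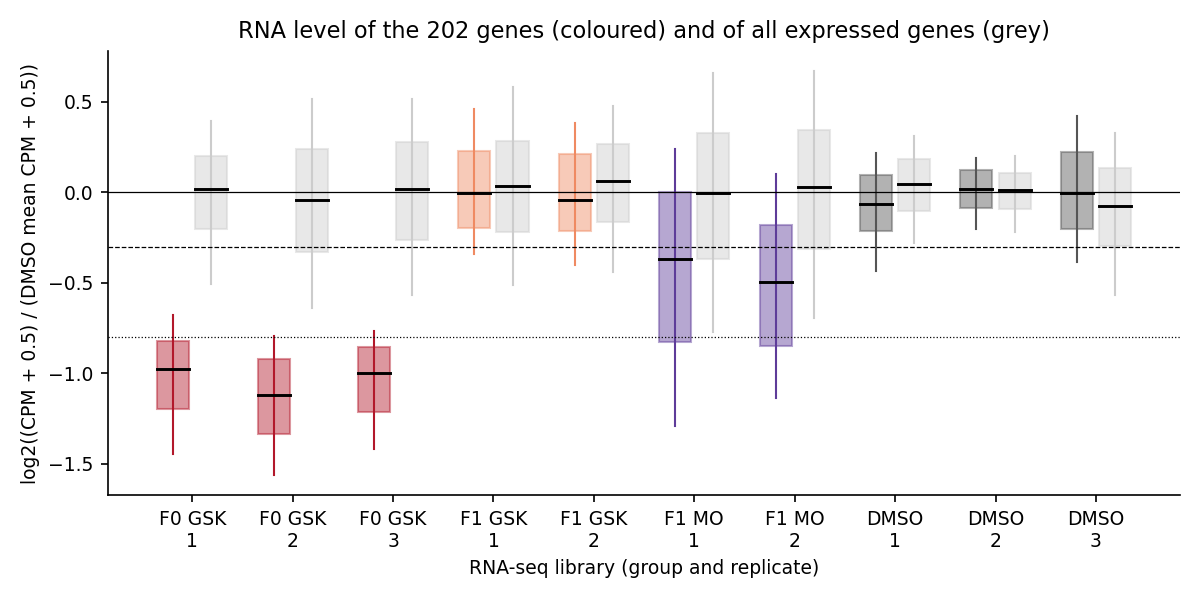
RNA level of the 202 genes (coloured) and of the 14008 expressed genes (grey) in each RNA-seq library, as log2 of CPM + 0.5 over the DMSO mean CPM + 0.5. Boxes span the 25th to 75th percentile, black bars are medians and thin lines the 10th to 90th percentile; the dotted line is at -0.8 and the dashed line at -0.3. The medians of the set are -0.37 and -0.50 in the F1 MO libraries, while those of the expressed genes lie close to 0.

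The size of the reduction in F0 GSK was mostly near 2-fold. L of F0 GSK ranged from -2.61 to -0.80, 102 members were at or below -1 and 11 at or below -1.5. LOC5509911 (chromosome 14, 9135446-9149821) had the lowest L of the set. Its level was 15.0, 16.6 and 17.1 CPM in F0 GSK, 93.5 and 95.8 CPM in F1 GSK, 50.4 and 38.4 CPM in F1 MO, and 103, 108 and 93.5 CPM in DMSO. The F0 GSK libraries lay far below all others, both F1 GSK libraries lay at the lower end of DMSO, and both F1 MO libraries lay between. LOC5507470 (chromosome 6, 13894332-13900515) came next, with 1.18, 0.904 and 1.5 CPM in F0 GSK, 6.56 and 9.82 CPM in F1 GSK, 0.518 and 1.06 CPM in F1 MO, and 10.1, 10.1 and 5.00 CPM in DMSO. Here both F1 MO libraries were as low as the F0 GSK libraries, and F1 GSK fell within the DMSO range.

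Other strongly reduced members differed in how much they varied between libraries. LOC5516000 (chromosome 7, 16781668-16792299) had 19.0, 25.6 and 22.4 CPM in F0 GSK, 89.5 and 51.9 CPM in F1 GSK, 93.2 and 60.4 CPM in F1 MO, and 107, 105 and 46.0 CPM in DMSO. LOC5505738 (chromosome 5, 7677022-7693419) had 9.0, 10.2 and 13.1 CPM in F0 GSK, 46.6 and 18.4 CPM in F1 GSK, 41.1 and 32.3 CPM in F1 MO, and 45.3, 53.8 and 14.7 CPM in DMSO. In both genes DMSO replicate 3 and F1 GSK replicate 2 were the low libraries of their groups, and DMSO replicate 3 lay just above the highest F0 GSK library in LOC5505738. LOC5503009 (chromosome 4, 18069512-18073867) had 4.83, 4.40 and 3.47 CPM in F0 GSK, 16.5 and 10 CPM in F1 GSK, 10.8 and 9.80 CPM in F1 MO, and 14.3, 14.3 and 17.6 CPM in DMSO. Its F1 libraries all lay above F0 GSK, and both F1 MO libraries lay below DMSO. LOC5513364 (chromosome 13, 2947023-2957224) had 6.45, 4.19 and 6.03 CPM in F0 GSK, 19.1 and 11.6 CPM in F1 GSK, 7.6 and 8.12 CPM in F1 MO, and 15.1, 18.1 and 21.2 CPM in DMSO. The next 6 members by L of F0 GSK were LOC5507961, LOC5511639, LOC116601353, LOC5514151, LOC5501625 and LOC5517230, with an L of F0 GSK of -1.61, -1.59, -1.57, -1.56, -1.52 and -1.48, and an L of F1 MO of -0.96, -0.53, -0.29, -0.42, -0.29 and -0.27. Thus the 12 most reduced members ranged in F1 MO from levels near F0 GSK to levels near DMSO.

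**Figure D2:**
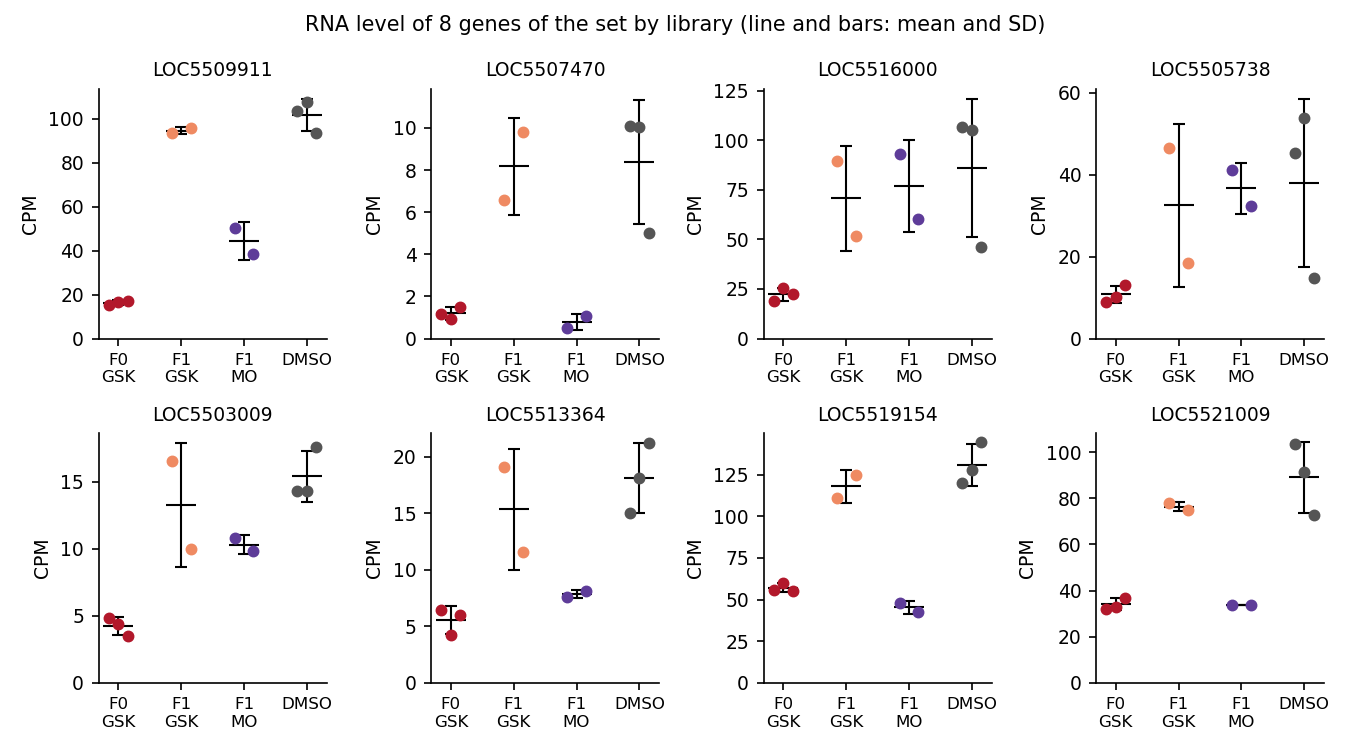
CPM (vertical axes, each from 0) of the 6 members with the lowest L of F0 GSK and of LOC5519154 and LOC5521009, by group; points are libraries, and the line and bars are the mean and SD. F1 MO lies at the F0 GSK level in LOC5507470 and LOC5521009, below it in LOC5519154, and at the DMSO level in LOC5516000 and LOC5505738.

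The thresholds cut through a continuous range. Just inside the threshold on F0 GSK were LOC5520555, LOC5516123 and LOC116614356, with an L of F0 GSK of -0.801, -0.802 and -0.805. LOC5508873, LOC5509541 and LOC5511562 were just outside, at -0.797, -0.796 and -0.795. At the threshold on F1 GSK, LOC5518541, LOC116601605 and LOC5504874 were just inside with an L of F1 GSK of -0.296, -0.295 and -0.291. LOC116609828, LOC5511008 and LOC5502098 were just outside at -0.301, -0.302 and -0.303.

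By edgeR's quasi-likelihood test with Benjamini-Hochberg adjustment over all genes (FDR < 0.01), 54 members were called lower in F0 GSK than in DMSO and 0 higher, where 0.991% of the 16654 genes tested were called lower and 0.24% higher. This is the contrast that chose the members, so nothing is read from the count. All 202 members had an unadjusted p under 0.05, and DESeq2 called 168 of them lower, where it called 3.86% of genes lower. The edgeR count was 110 (of 471 genes called in all) without DMSO replicate 3 and 20 (of 94) without DMSO replicate 1. It was 1 (of 3 to 7) without DMSO replicate 2 or without any one of the F0 GSK libraries. The study divided each of 3 crosses between GSK and DMSO, and with the replicate number as a block edgeR called 1 member of 2 genes in all, although same-numbered libraries did not deviate together. In F1 GSK, edgeR called 0 members and 0% of the 16681 genes tested in either direction. At an unadjusted p under 0.05, 2 members were lower and 1 higher, of 977 and 833 over all genes, and DESeq2 called 0 members, where it called 0.783% of genes lower and 0.502% higher.

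L of F1 GSK ranged from -0.30 to 0.97, and 90 members lay above 0. At least 1 F1 GSK library lay inside the DMSO range in 142 members, both F1 GSK libraries were above every DMSO library in 21 and below every DMSO library in 17. In 201 of 202 members both F1 GSK libraries were above every F0 GSK library. The thresholds on L nearly fix this count, so nothing is read from it. The rule also used the F1 GSK and DMSO libraries of the other counts, which have no share over all genes beside them. The 4 members with the highest L of F1 GSK, picked after their values were seen, were LOC5515815, LOC5521030, LOC5519623 and LOC5516132. LOC5515815 (chromosome 2, 17140739-17150776) had 11.1, 13.8 and 21.1 CPM in F0 GSK, 77.6 and 32.7 CPM in F1 GSK, 46.9 and 20.9 CPM in F1 MO, and 29.5, 29.7 and 24.5 CPM in DMSO. LOC5521030 (chromosome 6, 12275240-12291531) had 6.23, 7.44 and 10.4 CPM in F0 GSK, 43.2 and 16.4 CPM in F1 GSK, 18.9 and 9.89 CPM in F1 MO, and 16.4, 17.1 and 12.1 CPM in DMSO. In all 4, replicate 1 was more than 2-fold above replicate 2 in F1 GSK and was also the higher library in F1 MO, so their high L rests on 1 F1 GSK library. All 4 had under 0.25% methylated calls at CpGs of the gene body in untreated gastrulae (mCG, below).

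Levels in F1 MO spread from below those of F0 GSK to above those of DMSO. L of F1 MO ranged from -2.79 to 0.78. It was at or below -0.8 in 50 members, between -0.8 and -0.3 in 69 and above -0.3 in 83, of which 37 were above 0. In share, 24.75% of the set was at or below -0.8, where 7.67% of the expressed genes were, and 41.09% was above -0.3, where 74.05% of the expressed genes were. Both F1 MO libraries were below every DMSO library in 104 members, where 23.7% of the genes tested showed this, and above every DMSO library in 15, where 26.7% showed this. Set against F0 GSK, both F1 MO libraries were above every F0 GSK library in 136 members. In the other 66, a F1 MO library lay within the F0 GSK range or lower, and in 15 of these both F1 MO libraries were below every F0 GSK library. By the choice of the set, the DMSO libraries were high and the F0 GSK libraries low in these genes. This bears on each of these counts and shares. The counts against F0 GSK have no share over all genes beside them, and nothing is read from them.

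**Figure D3:**
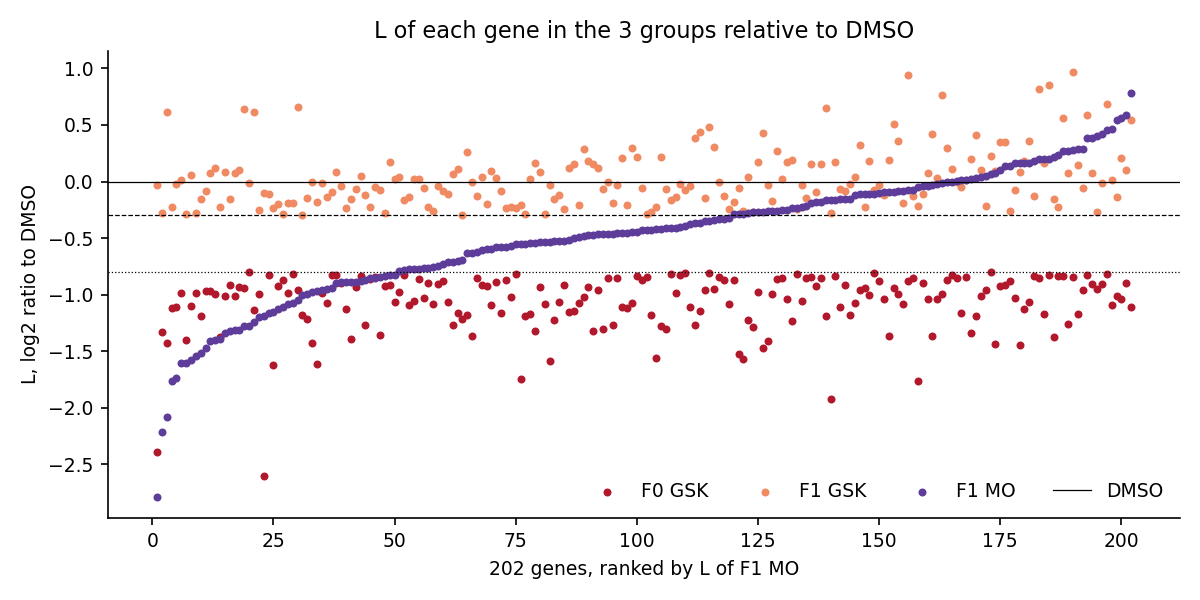
L (log2 ratio to the DMSO mean) of each of the 202 genes in F0 GSK, F1 GSK and F1 MO, with genes ranked by L of F1 MO; the line at 0 is DMSO, the dotted line -0.8 and the dashed line -0.3. F1 MO runs from -2.79 to 0.78 through both thresholds, while F0 GSK and F1 GSK are held apart by the choice of the genes.

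Against DMSO, edgeR called 2 members lower in F1 MO and 0 higher, where 0.472% of the 16750 genes tested were called lower and 0.0955% higher. At an unadjusted p under 0.05, 87 members were lower and 2 higher, of 2586 and 2082 over all genes, and DESeq2 called 47 members lower and 0 higher, where it called 5.54% of genes lower and 3.48% higher. The median edgeR log2 fold change was -0.50 over the members and 0.00 over all genes tested. The count rose to 23 without DMSO replicate 3, where edgeR called 822 genes in all, against 95 with every library, and fell to 0 without DMSO replicate 1 or 2 or without either F1 MO library. LOC5519154 (chromosome 10, 11287468-11297665) was 1 of the 2 called. It had 55.9, 60.1 and 55.2 CPM in F0 GSK, 111 and 125 CPM in F1 GSK, 48.1 and 42.6 CPM in F1 MO, and 120, 128 and 145 CPM in DMSO. Its F1 MO libraries were the lowest of all, with a log2 fold change of -1.58 against DMSO (SE 0.17, edgeR adjusted p = 0.0084). LOC5521009 (chromosome 1, 15706130-15720028) had 32.2, 33.0 and 36.9 CPM in F0 GSK, 77.9 and 74.9 CPM in F1 GSK, 33.8 and 33.6 CPM in F1 MO, and 103, 91.2 and 72.8 CPM in DMSO. Its F1 MO libraries lay inside the F0 GSK range, with a log2 fold change of -1.45 against DMSO (SE 0.16, edgeR adjusted p = 0.0092).

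Other members with a low L of F1 MO did not pass the test. LOC5507470, above, had the lowest L of F1 MO at -2.79, with an edgeR adjusted p of 0.0147. LOC5506921 (chromosome 12, 15038434-15059252) had 10.6, 8.51 and 9.06 CPM in F0 GSK, 17.8 and 22.3 CPM in F1 GSK, 4.70 and 4.99 CPM in F1 MO, and 15.2, 18.6 and 39.3 CPM in DMSO. Both F1 MO libraries were below every F0 GSK library, and DMSO replicate 3 was the highest library by far (edgeR adjusted p = 0.0377). At the other end, LOC5508572 (chromosome 13, 236682-248544) had the highest L of F1 MO at 0.78. It had 7.15, 5.34 and 6.13 CPM in F0 GSK, 19.6 and 21.6 CPM in F1 GSK, 21.4 and 27.2 CPM in F1 MO, and 12.9, 12.4 and 16.6 CPM in DMSO. All 4 F1 libraries were above every DMSO library (F1 MO against DMSO, edgeR adjusted p = 0.0957). LOC5501624 (chromosome 8, 4798454-4803574) had 1.36, 1.68 and 1.43 CPM in F0 GSK, 3.46 and 3.49 CPM in F1 GSK, 5.35 and 4.8 CPM in F1 MO, and 4.68, 2.76 and 2.19 CPM in DMSO. LOC5519545 (chromosome 13, 12774064-12794123) had 5.31, 4.52 and 6.51 CPM in F0 GSK, 16.2 and 10.9 CPM in F1 GSK, 17.9 and 17.1 CPM in F1 MO, and 15.8, 12.6 and 6.78 CPM in DMSO. In these last 2 genes DMSO replicate 3 was the lowest DMSO library.

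The 2 F1 groups were also compared with each other, in libraries of which the rule used only F1 GSK. Since the rule kept genes that were not low in F1 GSK, it favours lower values in F1 MO in each of the counts and the median below. Both F1 MO libraries were below both F1 GSK libraries in 128 members, where 28.6% of the genes tested showed this, and above both in 10, where 24.7% showed this. The median log2 fold change of F1 MO against F1 GSK was -0.42 over the members and 0.00 over all genes. edgeR called 0 members and 0% of the 16556 genes tested in either direction. At an unadjusted p under 0.05, 70 members were lower and 3 higher in F1 MO, of 1587 and 1652 over all genes, and DESeq2 called 23 lower and 0 higher, where it called 2.18% of genes lower and 1.47% higher. The edgeR count was 6 (of 156 over all genes) without F1 GSK replicate 1, 1 (of 28) without F1 GSK replicate 2 and 0 without either F1 MO library.

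Some members were neighbours on a chromosome. With genes ordered by start, 23 members lay in 10 runs of neighbouring genes, 8 runs of 2 genes, 1 of 3 and 1 of 4. The ordering passed over some protein-coding genes that overlap members. These include LOC116611853 at LOC5506858 in the run of 3 and LOC125557577 at LOC116620303 in the run of 4. The share of expressed genes in such runs was not computed. The run of 4 spanned 36323 bp on chromosome 12 (7998339-8034661) and held LOC5500237, LOC125557545, LOC5509576 and LOC116620303. All 4 had an L of F1 GSK of 0.62 to 0.66 and an L of F1 MO of -2.08 to -1.05, so both F1 GSK libraries were high and both F1 MO libraries low across the run. LOC5509576 (8010156-8014440) had 6.38, 4.19 and 5.14 CPM in F0 GSK, 25.2 and 21.2 CPM in F1 GSK, 2.42 and 3.89 CPM in F1 MO, and 9.63, 11.2 and 24.0 CPM in DMSO. LOC116620303 (8015604-8034661) had 30.1, 13.3 and 24.9 CPM in F0 GSK, 75.8 and 62.4 CPM in F1 GSK, 13.2 and 22.6 CPM in F1 MO, and 32.7, 36.4 and 63.3 CPM in DMSO. In all 4 genes DMSO replicate 3 was the highest DMSO library. The next genes on either side in this ordering were LOC5503885 (ending at 7376456) and LOC5509571 (starting at 8062430), and were not members. They had an L of F1 GSK of -0.43 and 0.39 and an L of F1 MO of -1.0 and -0.006. A pair on chromosome 13, LOC5508553 (226303-234601) and LOC5508572, was high in both F1 groups, with an L of F1 GSK of 0.68 and 0.54 and an L of F1 MO of 0.46 and 0.78.

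The set was spread unevenly over the 15 chromosomes. Chromosome 13 held 27 members of 859 expressed genes (3.14%) and chromosome 6 held 25 of 1053 (2.37%), against 1.44% over all chromosomes, and chromosome 3 held 6 of 1224 (0.490%). All genes lowered in F0 GSK were also most frequent on chromosome 13, at 6.64% of its expressed genes against 3.43% overall. These are counts with no test. Overlap with another protein-coding gene was found for 70 members (34.65%), where 30.12% of the expressed genes overlap another, and whether the counting used strand is not stated, so reads of the 2 genes of such a pair may not be told apart. LOC5516000, LOC5513364, LOC5502473, LOC5506921 and LOC5521893 are among these.

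CAGE-seq gave a readout of the starts of the same genes that the rule did not use, though its GSK libraries came from RNA of 2 of the RNA-seq replicates and so from the same embryos. The control libraries were labelled WT rather than DMSO, so exposure to DMSO may differ along with GSK. Across clusters, log2 signal had a Pearson r of 0.85 to 0.884 between GSK and control libraries, against 0.973 within GSK and 0.989 within control. A start could be assigned to 99 members (49.01%), where 61.59% of the expressed genes had 1. At least 97 of the 99 had a methylated body (defined below), so results at starts describe few unmethylated members. Starts were assigned from clusters of the control libraries, so a start used in GSK alone could not be among them. Of the 99 members, 88 held 89 clusters listed in all 4 libraries. Signal was lower in GSK than in control at 75 of the 89 clusters and higher at 0 (limma on log2 of the signal + 1, FDR < 0.05), where 34.9% of the 11462 clusters tested were called lower and 19.6% higher, and 35% and 18.5% of those at starts of expressed genes. The median log2 fold change was -1.36 at the members and -0.21 over all clusters, that is -1.16 relative to all clusters, and 85 of 89 were below 0. Both GSK libraries were below both control libraries at 79 clusters, where 48.7% of all clusters showed this. With each library centred on its median cluster, 66 member clusters were called lower and 1 higher, where 25.8% and 26% of all clusters were called. Leaving out 1 library at a time gave 58 to 77 clusters called lower. The 42 start clusters of the genes that stayed low in F1 GSK had a median of -1.37, and 28 of them were called lower.

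The clusters with the largest reduction among the members were at LOC5511639, LOC5507097 and LOC5508951, named after their values were seen. The cluster of LOC5511639 (chromosome 9, 2704394-2704395, plus strand) had a signal of 2.18 and 2.69 in GSK, against 30.3 and 24.0 in control, on the power-law scale of the authors. Its log2 fold change was -3.03 (SE 0.44, limma adjusted p = 0.00043). The cluster of LOC5507097 (chromosome 7, 11129751-11129761, minus strand) had 18.6 and 15.3 in GSK, against 151 and 114 in control, a log2 fold change of -2.89 (SE 0.22, limma adjusted p = 4.0e-05). LOC5509911, the member with the lowest RNA level relative to DMSO, had 18.6 and 23.7 in GSK, against 136 and 113 in control (chromosome 14, 9135592-9135618, plus strand), with a log2 fold change of -2.51. LOC5521009, called lower in F1 MO, had 49.8 and 52.2 in GSK, against 273 and 245 in control, and LOC5519154 had 63.0 and 68.5 in GSK, against 138 and 128 in control. At these clusters the groups did not overlap. Of the 171 clusters listed in both GSK libraries and in neither control library, 0 lay in a member, where 0.75% of the expressed genes held 1.

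ATAC-seq libraries are a further readout that the rule did not use. In F0, however, the study made them from samples matched to those of RNA-seq, so they are not separate crosses. At the starts of 83 members there were 85 merged peaks with their centre within 500 bp of the start. In F0 GSK, 10 of these were called lower and 0 higher (edgeR, FDR < 0.01), where 0.462% of the 5625 start peaks of expressed genes were called lower and 0.107% higher. The median log2 fold change was -0.29 at the members and -0.08 at the start peaks of expressed genes. It was below 0 at 75 of the 85 member peaks, where 3970 of the 5625 start peaks of expressed genes were below 0. The genes that stayed low in F1 GSK had a median of -0.28 at 34 start peaks, 3 of them called lower. All 10 called peaks had under 20% methylation (mCG, defined with the Nanopore data) in the untreated gastrulae. This is usual at starts, so nothing is read from it. Within 500 bp of the start, the 90th percentile of mCG was 5.11% in members and 1.28% in expressed genes. The count was 1 without DMSO replicate 1 and 3 without DMSO replicate 2, and 6 to 15 without any one of the F0 GSK libraries.

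The start peak of LOC5509911 (chromosome 14, 9135049-9136383) had 31.8, 24.4 and 27.6 CPM in F0 GSK, 58.6 and 51.7 CPM in F1 GSK, 55.2 and 37.8 CPM in F1 MO, and 59.9 and 50.1 CPM in DMSO. It was lower in F0 GSK by a log2 fold change of -1.0 (SE 0.15, edgeR adjusted p = 6.6e-06), and both F1 GSK libraries lay above every F0 GSK library. The start peak of LOC5511552 (chromosome 4, 2682670-2683773) had 28.2, 24.5 and 18.9 CPM in F0 GSK, 44.0 and 40.3 CPM in F1 GSK, 37.0 and 32.2 CPM in F1 MO, and 48.1 and 40.3 CPM in DMSO (F0 GSK against DMSO, log2 fold change -0.92, SE 0.16, edgeR adjusted p = 0.00017). Unlike that of LOC5509911, its CAGE-seq start cluster was not called lower. Signal there was 68.4 and 119.9 in GSK, against 89.8 and 105.8 in control (log2 fold change -0.10, limma adjusted p = 0.744). The start peak of LOC5502473 (chromosome 4, 5427244-5428246) had 15.7, 18.9 and 14.7 CPM in F0 GSK, 17.9 and 18.7 CPM in F1 GSK, 45.3 and 26.0 CPM in F1 MO, and 29.4 and 30.3 CPM in DMSO. There both F1 GSK libraries stayed within the F0 GSK range, although the RNA level of the gene was 24.2 and 19.2 CPM in F1 GSK, against 23.3, 27.0 and 22.2 CPM in DMSO. The other named start peaks were at LOC5516000, LOC5516397 and LOC5521893, with a log2 fold change of -0.89, -1.0 and -0.70 in F0 GSK.

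Peaks inside the genes but away from an assigned start, called body peaks, changed in both directions. In a gene with no assigned start every peak inside it was counted here, so some body peaks may lie at a start. This held for members and expressed genes alike. At 143 members there were 313 body peaks, of which 9 were called lower and 15 higher in F0 GSK, where 0.226% of the 18106 body peaks of expressed genes were called lower and 2.42% higher. The 15 higher peaks lay in 13 genes. The share called higher was above that of expressed genes, with no test of the difference. All 15 lay in DNA with at least 20% mCG in the untreated gastrulae, as did 128 of the 313 body peaks. The study found peaks opened by GSK mainly in methylated DNA across the genome, so this is not particular to the set. The body peak of LOC5514677 (chromosome 6, 3339433-3340707) had 50.2, 33.8 and 36.3 CPM in F0 GSK, 35.9 and 34.1 CPM in F1 GSK, 47.0 and 27.8 CPM in F1 MO, and 15.5 and 15.0 CPM in DMSO. All F0 GSK and F1 libraries were above DMSO, with a log2 fold change of 1.36 in F0 GSK (SE 0.18, edgeR adjusted p = 3.6e-07). The body peak of LOC5510960 (chromosome 9, 4935941-4936976) had 21.9, 22.6 and 20.9 CPM in F0 GSK, 18.9 and 23.2 CPM in F1 GSK, 34.7 and 39.7 CPM in F1 MO, and 8.45 and 6.36 CPM in DMSO. It was higher in F0 GSK by a log2 fold change of 1.54 (SE 0.23, edgeR adjusted p = 8.3e-06). LOC5518907 and LOC5521082 held body peaks with a log2 fold change of 2.22 and 2.02 in F0 GSK, and in F1 MO their 2 libraries were far apart, at 27.2 and 0.798 CPM and at 0.214 and 8.06 CPM. LOC5518247 held 2 higher body peaks and a lower start peak in F0 GSK. The body peak of LOC5501208 (chromosome 13, 4347254-4348467), at 2.13% mCG, was called lower, with 13.8, 15.5 and 15.6 CPM in F0 GSK, 28.7 and 15.0 CPM in F1 GSK, 61.4 and 15.5 CPM in F1 MO, and 35.5 and 33.3 CPM in DMSO. DESeq2 called 11 start peaks lower, 9 body peaks lower and 18 body peaks higher in F0 GSK, where it called 0.273% of all merged peaks lower and 1.84% higher. Leaving out 1 library at a time gave 7 to 21 body peaks called higher and 1 to 11 called lower. The count of lower peaks was 1 without DMSO replicate 1, 2 without DMSO replicate 2 and 4 without F0 GSK replicate 2 or 3, and that of higher peaks was 7 without either DMSO library and 9 without F0 GSK replicate 3.

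In the F1 groups edgeR called 0 peaks at starts or in bodies of members, and 0% of all merged peaks. At an unadjusted p under 0.05 there were 5 of 85 start and 47 of 313 body peaks in F1 GSK against DMSO, where expressed genes had 526 of 5625 and 1781 of 18105. In F1 MO against DMSO there were 5 start and 72 body peaks, where expressed genes had 639 of 5625 and 3695 of 18103. DESeq2 called 0 start peaks and 1 body peak in F1 GSK, where it called 0.0606% of all merged peaks lower and 0.187% higher. In F1 MO it called 4 start and 68 body peaks, where it called 12.1% of all merged peaks lower and 6.18% higher. Between F1 MO and F1 GSK it called 2 start and 13 body peaks, where it called 2.05% of all merged peaks lower and 1.44% higher, and 5 of 85 start and 32 of 298 body peaks had an unadjusted p under 0.05, where expressed genes had 376 of 5615 and 1926 of 17192. With F1 GSK replicate 1 left out, edgeR called 26 start and 130 body peaks of members among 12465 of all merged peaks, and with F1 GSK replicate 2 left out, 16 and 83 among 8082. With F1 MO replicate 1 left out, it called 44 and 175 among 22181, and with F1 MO replicate 2 left out, 41 and 209 among 21176. In these fits the remaining F1 library is assumed to vary like the DMSO libraries. The median log2 fold change at the members' start peaks was 0.05 in F1 GSK and 0.06 in F1 MO, against -0.02 and 0.16 at the start peaks of expressed genes. Of the 10 start peaks lower in F0 GSK, both F1 GSK libraries were above every F0 GSK library at 8. Both F1 MO libraries were above them at 5. Of the 26 lower start peaks of expressed genes, which include these 10, 69.2% showed this for F1 GSK and 26.9% for F1 MO. Below every DMSO library were both F1 GSK libraries at 4 of the 10, and both F1 MO libraries at 4 (34.6% and 65.4% of the 26). At the 9 lower body peaks, these counts were 6 for F1 GSK and 8 for F1 MO. Of all 83 merged peaks called lower in F0 GSK, 48.2% showed this for F1 GSK and 63.9% for F1 MO. All these peaks were picked as lower in F0 GSK than in DMSO, which favours F1 values between those groups. Of the 15 body peaks higher in F0 GSK, both F1 GSK libraries were above every DMSO library at 12 (80%), where 66.4% of the 438 higher body peaks of expressed genes showed this, and both F1 MO libraries at 10 (66.7%, where 64.6% showed this).

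**Figure D4:**
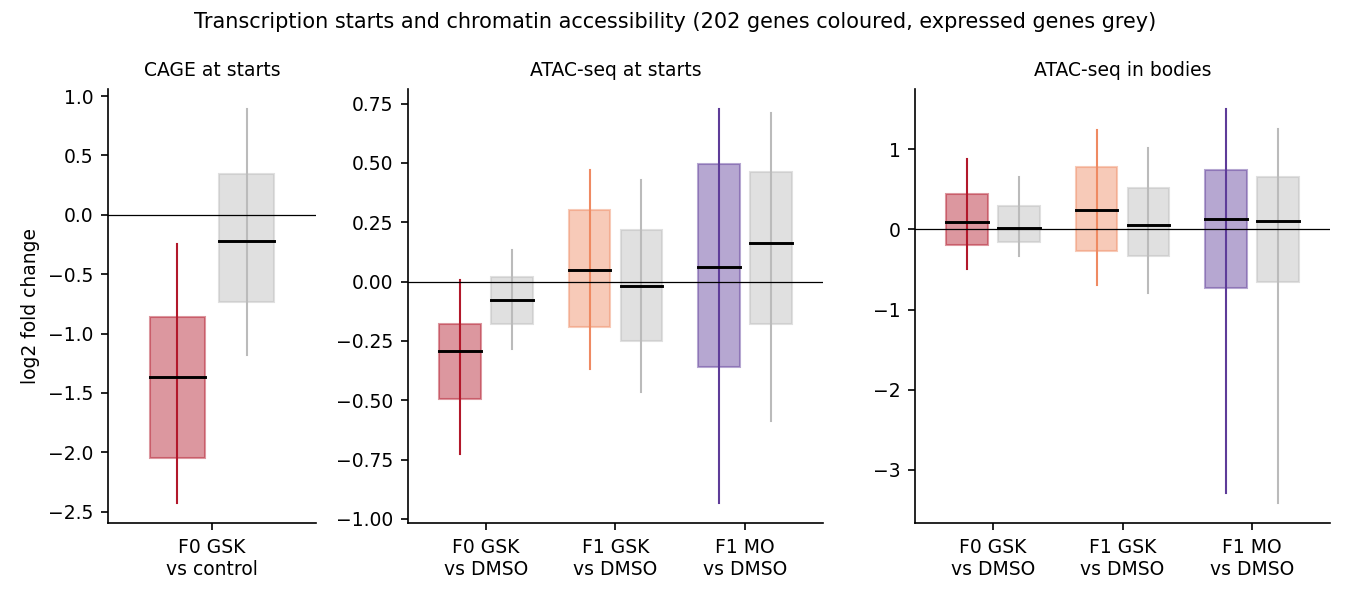
log2 fold changes of CAGE-seq signal at starts, and of ATAC-seq counts in peaks at starts and in gene bodies, for the 202 genes (coloured) and for expressed genes (grey). Boxes span the 25th to 75th percentile, black bars are medians and thin lines the 10th to 90th percentile. At starts the medians of the set in F0 GSK are -1.36 in CAGE-seq and -0.29 in ATAC-seq, and in F1 GSK and F1 MO the ATAC-seq medians are 0.05 and 0.06.

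Gene body methylation (mCG) was taken from Nanopore calls as the percent of valid calls at CpGs that were 5-methylcytosine. There was 1 library of each kind and no test. The libraries held 33.5 to 61.4 valid calls per CpG on average, and over the whole genome mCG was 4.37% in sperm of the GSK-treated male, 7.33% in F1 gastrulae and 6.81% in the F1 juvenile, against 12.3% in untreated gastrulae. In untreated gastrulae 171 of 202 members had at least 10% mCG (84.65%, 95% Wilson interval 79.04 to 88.97%), where 8537 of 13894 expressed genes did (61.44%, 60.63 to 62.25%). Of the genes that stayed low in F1 GSK, 70 of 91 did (76.92%), and of those between, 166 of 182 (91.21%). Over all genes lowered in F0 GSK, 407 of 475 (85.68%) had a methylated body. The median member had 13.9% mCG in GSK sperm, 27.1% in F1 gastrulae and 26.8% in the F1 juvenile, against 45.9% in untreated gastrulae. For expressed genes the medians were 7.81%, 13.8% and 12.6%, against 20.9%.

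Among methylated members, mCG in sperm of the GSK-treated male was a median of 36.4% of the level in untreated gastrulae, a comparison of a germ cell with whole embryos. This was 28.3% in the genes that stayed low in F1 GSK and 49.1% in all expressed methylated genes. In F1 gastrulae the level was 65.1% of that in untreated gastrulae in members, 59.4% in the genes that stayed low and 71.1% in expressed genes. LOC5509911 had 9.47% mCG in sperm, 24.4% in F1 gastrulae and 17.4% in the F1 juvenile, against 38.4% in untreated gastrulae. LOC5519154 had 49.1%, 67.0% and 74.9%, against 81.4%, and LOC5521009 had 16.6%, 37.5% and 31.9%, against 69.2%. Not every member was methylated: LOC5514151 had 1.85%, 3.85% and 7.33%, against 5.67%. LOC116614356 had under 0.1% in all 4 libraries. Thus a methylated body was frequent in the set but not shared by all of its members.

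Genes with an assigned start, 97 of the methylated members, were split into 3 equal parts. In untreated gastrulae the median of methylated members was 59.0% in the first part, 90.9% in the middle part and 37.0% in the last part, where expressed methylated genes had 39.2%, 89.9% and 40.2%. The middle part was the most methylated in both, and the set was above the expressed genes in the first part. All genes lowered in F0 GSK had 58.0% in the first part, close to the set. In GSK sperm the medians of members were 23.5%, 25.9% and 4.17%, and those of expressed genes 20.8%, 36.8% and 9.11%. In F1 gastrulae members had 42.5%, 52.6% and 16.6%, where expressed genes had 29.9%, 61.4% and 23.1%. Within 500 bp of the start the median was 0.24% in members and 0.11% in expressed genes of untreated gastrulae, so the starts themselves were nearly free of methylation. Genes of the set were of a median length of 8474 bp with 24.4 CpGs per kb, where expressed genes had 7448 bp and 26.4 CpGs per kb.

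**Figure D5:**
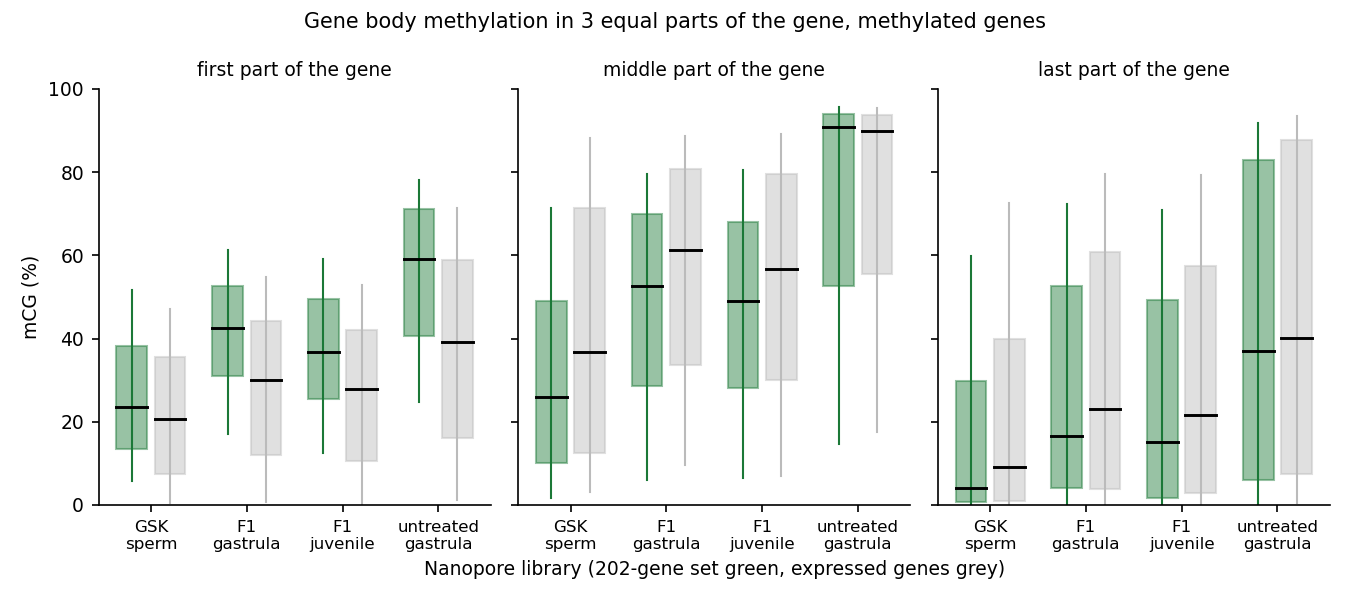
mCG (%) in the first, middle and last part of methylated genes in the 4 Nanopore libraries, for the 202-gene set (green) and expressed genes (grey). Boxes span the 25th to 75th percentile of genes, black bars are medians and thin lines the 10th to 90th percentile. In untreated gastrulae the first part has a median of 59.0% in the set, against 39.2% in expressed genes, and the middle parts are alike at 90.9% and 89.9%.

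The members were also described by range of L of F1 MO. The 50 members at or below -0.8, the 69 between and the 83 above -0.3 had a median L of F0 GSK of -0.99, -1.06 and -0.99. Their median DMSO level was 17.4, 19.7 and 20.2 CPM. Both values share the DMSO libraries with L of F1 MO. In readouts that the ranges did not use, their median mCG in untreated gastrulae 50.2%, 44.1% and 42.9%, and 45, 57 and 69 of them were methylated. Median mCG in sperm of the GSK-treated male was 30.8%, 37.8% and 40.7% of the untreated level in these ranges. The median CAGE-seq log2 fold change in GSK was -1.29, -1.45 and -1.33, and that of the F0 GSK start peaks in ATAC-seq -0.24, -0.22 and -0.48. These medians are descriptions of unequal groups, with no test.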

How the data were processed

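RNA-seq, ATAC-seq, CAGE-seq and Nanopore files of 25 hpf gastrulae, sperm and a juvenile were used, all on assembly jaNemVect1.1. EM-seq samples were not analysed here. The deposited RNA-seq table holds counts per gene. The authors describe 2 routes, kallisto estimates rounded to whole numbers and HISAT2 with TElocal, and which of them made the table is not stated in the sources used here. The deposited ATAC-seq table holds the authors' featureCounts counts in peaks called per library with MACS3 and then merged, and the deposited peak lists give −log10 q values. The deposited CAGE-seq files hold signal per cluster, normalised by the authors to a power law with CAGEr after alignment with STAR. The deposited Nanopore tables hold Modkit counts of valid and methylated calls per CpG, made by the authors after basecalling with Dorado.

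Members and lists were chosen with earlier results of these data known. Expressed genes are all genes with at least 2 CPM in DMSO, members included. Differences were tested with edgeR 4.0.16 (quasi-likelihood, TMM, filterByExpr, FDR < 0.01) on the counts and limma 3.58.1 on log2 of the CAGE-seq signal + 1 (FDR < 0.05), in R 4.3.3, with DESeq2 1.42.0 as an alternative, and were tested on simulated data. Each fit took only the 2 groups compared, and p-values were adjusted over all features tested. Gene starts and orientation were taken from control CAGE clusters within 500 bp of a gene end, so only clusters with control signal could be assigned, and a cluster had to be listed in all 4 libraries to be tested. Start peaks had their centre within 500 bp of the start, and body peaks lay elsewhere in the gene, or anywhere in a gene with no assigned start. mCG used CpGs with at least 10 valid calls and genes with at least 5 such CpGs. A gene with at least 10% mCG in untreated gastrulae was called methylated. Wilson intervals cover counting error only. Where nothing says that libraries came from separate cultures, p-values measure only the spread between these samples. The F0 replicates came from different broodstocks, and F1 replicates are lines.

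Genes named were the 12 members with the lowest L of F0 GSK, those called in F1 MO, the 3 with the highest and the 3 with the lowest L of F1 MO, the 3 on each side of each threshold on L, and up to 6 with a called ATAC-seq peak at the start and in the body, by lowest adjusted p. A condition that the gene be described in RefSeq was dropped. Runs of neighbours, genes named for CAGE-seq, methylation or a high L of F1 GSK were chosen after their values were seen. Each F0 cross was divided between GSK and DMSO, but nothing in the sources used here says that replicate numbers mark crosses. They were not taken as pairs, since the deviations of same-numbered F0 RNA-seq libraries had correlations of -0.385, -0.107 and -0.323. The number of columns of per-sample values left unused was 0. Gene lists, cell type markers and sequences were not used here, as the tables give no gene descriptions.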

Additional observations from a re-analysis of the deposited data

Results flagged for a closer look

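Only the members named by the rules above were searched here, and no share over all genes was computed. In 3 of them the F1 groups lay on opposite sides of all DMSO libraries. The opposite directions themselves were not tested. In the comparison of F1 MO with F1 GSK, none of the 3 passed edgeR's test (adjusted p = 0.139 for LOC5517230, 0.244 for LOC116614356 and 0.146 for LOC5518247). LOC5517230 had 51.0 and 63.5 CPM in F1 GSK and 36.9 and 33.4 CPM in F1 MO, against 37.0, 44.7 and 45.5 CPM in DMSO. Its L was 0.43 in F1 GSK and -0.27 in F1 MO. LOC116614356 had 6.12 and 5.62 CPM in F1 GSK and 3.63 and 2.54 CPM in F1 MO, against 4.25, 3.91 and 4.01 CPM in DMSO, with an L of 0.48 in F1 GSK and -0.35 in F1 MO. LOC5518247 went the other way, with 23.4 and 20.1 CPM in F1 GSK and 30.9 and 39.1 CPM in F1 MO, against 28.4, 24.9 and 25.8 CPM in DMSO, and an L of -0.27 in F1 GSK and 0.40 in F1 MO. Groups of 2 or 3 libraries were too small to look for single libraries that stood apart by Dixon's criterion.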

How the results depend on the processing

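The set held 102 genes with L of F0 GSK at or below -1, and 189 to 268 with 1 library left out, of which 144 to 190 were among the 202. Members called in F0 GSK were 54 by edgeR, 168 by DESeq2 and 1 to 110 with 1 library left out, and 0 in F1 GSK with any library left out. Members called in F1 MO against DMSO were 2, and became 37 at FDR < 0.05, 47 by DESeq2, 25 with all groups in 1 fit and 0 to 23 with 1 library left out. Against F1 GSK, 0 were called in F1 MO, and 23 by DESeq2, 7 with all groups in 1 fit and 0 to 6 with 1 library left out. With the replicate number as a block, 1 member was called in F0 GSK and 45 in F1 MO against DMSO; the numbers gave no sign of pairing, and the cause was not tested.

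In F0 GSK, start peaks called lower ranged from 1 to 15, body peaks lower from 1 to 11 and higher from 7 to 21 with 1 library left out, and with stricter peaks 5 body peaks were lower and 7 higher. Start peaks called in F1 GSK ranged from 0 to 26 and body peaks from 0 to 130 with 1 library left out, and in F1 MO from 0 to 44 and from 0 to 209. DESeq2 called 1 body peak in F1 GSK, 4 start and 68 body peaks in F1 MO, and 2 start and 13 body peaks between F1 MO and F1 GSK. CAGE-seq clusters called lower ranged from 58 to 77 and higher from 0 to 2 with 1 library left out (2 without GSK replicate 1), and 1 was higher after centring, an alternative chosen after seeing the data. With a methylated gene set at 20% mCG, 77.23% of members were methylated and the level in GSK sperm was 37.88% of that in untreated gastrulae. Single fold changes were rerun only for the 2 members called in F1 MO against DMSO and for the named ATAC-seq peaks called in F0 GSK. These kept their direction under every alternative run, but not all kept their call. Without DMSO replicate 1, LOC5519154 and LOC5521009 both lost theirs (edgeR adjusted p = 0.0169 and 0.0249). The RNA levels of the other named genes were not rerun 1 by 1. Depth limits precision most for the 29 members under 5 CPM in DMSO.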
